A study of Mus musculus with 24 samples.

Results

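The adult retina was compared with the newborn retina in wild-type mice: 4 arrays at 2 months of age against 4 arrays at postnatal day 2 (P2). The arrays were chosen by their sample titles, 8 of the 24 in the series, and every probe set that is not an array control was tested, 12422 of 12488. The 4 wild-type arrays at P10 served to find genes whose P10 mean lay outside the range from P2 to 2 months, and all 24 arrays entered the estimate of spread and the choice of a gene's probe set. Total RNA of whole retina was measured on Affymetrix oligonucleotide arrays at these 3 ages in wild-type mice and in Nrl-/- mice, which lack the rod transcription factor Nrl, in 6 groups of 4. Mice of both genotypes shared a mixed R1 and C57BL/6 background, matched between them, and no treatment is named. Nothing states if each replicate came from a single mouse or from pooled mice, so p-values rest on a spread that may be technical. If arrays of different ages were processed in different batches, batch and age cannot be told apart.

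In the newborn mouse retina, progenitor cells are still dividing and giving rise to rods, bipolar cells and Müller glia, while ganglion cells, horizontal cells and cones have already been born. After division ends, photoreceptors build outer segments packed with the phototransduction cascade, neurons form ribbon and conventional synapses, and Müller glia take on their supporting role. In the adult mouse retina rods are by far the most numerous cell type.

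Intensities are given on the deposited linear scale as mean ± SD (n = 4), and changes as log2 differences, 2 months minus P2, ± standard error. Adjusted p-values are two-sided, from limma with Benjamini-Hochberg adjustment over the 12422 probe sets, and a change was called at an adjusted p under 0.05. A gene was represented by its brightest probe set over the 24 arrays, which gave 8251 genes. The file holds no detection calls, so a group mean below the 25th percentile of all probe sets (28.5) is called dim here, and the size of a fold with a dim side is uncertain. Across probe sets, Pearson correlations were 0.9931 to 0.9957 among the P2 arrays, 0.9931 to 0.9968 among the 2 month arrays and 0.9350 to 0.9431 between the ages. The wild-type P2 array of replicate 1 stood apart for lens genes, as given with them. Its maximum intensity was 5883, against 9608 to 10388 on the other wild-type P2 arrays. Some other genes given below, such as Sag, Hk1 and Hes6, also read lowest of their P2 group on it.

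Changes between the ages were widespread. Of 12422 probe sets 5631 were called (45.3%), 3029 higher at 2 months (24.4%) and 2602 lower (20.9%), and of 8251 genes 4158 were called (50.4%), 2178 higher (26.4%) and 1980 lower (24%). Most of these changes were small: 914 probe sets were called with a change of at least 2-fold (7.36%), 416 higher (3.35%) and 498 lower (4.01%), and 718 genes (8.70%), 329 higher (3.99%) and 389 lower (4.71%). The median log2 change over all probe sets was 0.08, the 1st percentile -1.86 and the 99th percentile 1.90, against a median residual SD of 0.13. The 4 adult values lay wholly on one side of the 4 newborn values in 5521 probe sets (44.4%) and 4116 genes (49.9%). More probe sets were called higher than lower as deposited, but the order turned when each array was centred on its median (2415 higher, 2914 lower) or quantile normalised (2715 and 2757), and also without P2 replicate 3 (2526 and 2582), at an adjusted p under 0.01 (2074 and 2220) and among the brighter 6211 probe sets (1897 and 2043). Among the 100 largest falls with no overlap were 17 of 26 measured mitosis genes and 9 of 25 progenitor genes, beside 100 of all 8251 genes. The 100 largest rises held 10 of 13 rod phototransduction genes, 6 of 10 outer segment genes and 5 of 16 glycolysis genes. Only 50 of these falls and 46 of these rises were in any gene list, and the lists were chosen with earlier results of these data known.

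**Figure D1:**
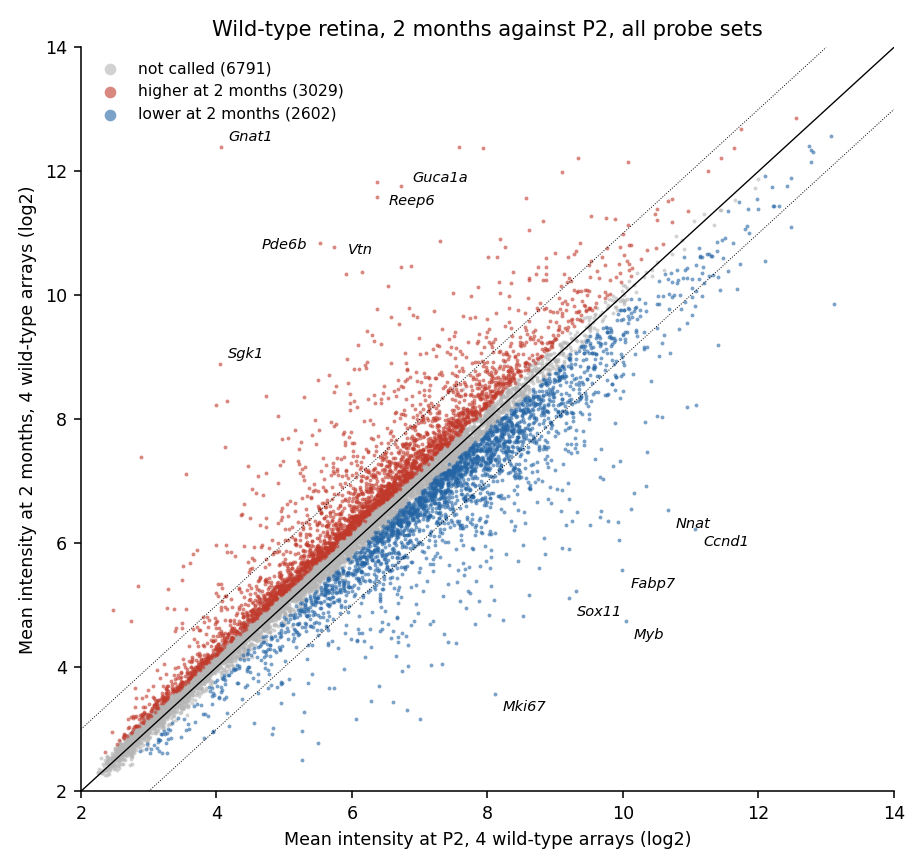
Mean log2 intensity of 12422 probe sets at P2 (x axis) and at 2 months (y axis), over 4 wild-type arrays each; the solid line marks no change and the dotted lines 2-fold. The 3029 probe sets called higher (red) and 2602 called lower (blue) mostly lie close to the diagonal, and the named genes are the 6 largest rises and falls.

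Rod phototransduction genes held the largest rises. Of the 20 listed genes 13 were measured, 12 rose and none fell, with a median log2 change of 4.13 against 0.08 over all genes. For this and every list count below, the shares over all genes were 26.4% higher and 24% lower. Whole retina holds many cell types, so more cells of a type and more RNA per cell cannot be told apart in these arrays, here or below.

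Gnat1 encodes the alpha subunit of rod transducin, the G protein of the rod light response. Its intensity was 13.1, 12.8, 25.9 and 15.25 on the P2 arrays and 5601, 5952, 5368 and 4624 on the 2 month arrays. The groups did not come near each other, and the log2 change of 8.39 ± 0.35 (adjusted p = 1.30e-17) was the largest of all genes, but the P2 mean of 16.8 ± 6.2 was dim, so its true size is uncertain.

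Pde6b, Pde6a and Pde6g encode the catalytic subunits and the inhibitory subunit of the phosphodiesterase that transducin switches on. Pde6b stood at 43.0, 45.3, 51.8 and 44.0 at P2 and at 1672, 1900, 1927 and 1821 at 2 months, an increase of 5.31 ± 0.13 (adjusted p = 8.58e-23). A second probe set of Pde6b rose by 2.76 ± 0.14. Pde6g went from 192 ± 14.9 to 5399 ± 304, an increase of 4.81 ± 0.08, and Pde6a from 62.6 ± 8.19 to 338 ± 35.2, an increase of 2.44 ± 0.16. The 3 subunits of 1 enzyme thus rose together but by unlike amounts on their probe sets.

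Cnga1 encodes the subunit of the cyclic nucleotide-gated channel that closes in light. It rose from a dim 17.9 ± 1.31 to 314 ± 34.7, a log2 change of 4.13 ± 0.10 (adjusted p = 1.90e-22). Genes that switch the response off rose as well. Sag, rod arrestin, stood at 157, 283, 255 and 284 at P2 and at 4473, 5431, 5943 and 5441 at 2 months, an increase of 4.47 ± 0.17 (adjusted p = 2.63e-18). Replicate 1 was the lowest of its group at both ages, yet the groups were far apart. Rcvrn, the calcium sensor recoverin, rose by 4.43 ± 0.11 and Guca1a, a calcium-dependent activator of guanylate cyclase, by 5.12 ± 0.19. Guca1a was uneven at P2, at 69.9, 127, 69.2 and 155, and reached 2714, 3449, 3927 and 3810 at 2 months. Pdc, phosducin, which binds the transducin beta and gamma subunits, rose by 3.01 ± 0.10, although a second Pdc probe set had a log2 change of 0.00 (272 and 271).

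Genes whose products time the shut-off were called too. Rgs9, which speeds the GTPase of transducin, rose by 0.74 ± 0.10, its partner Gnb5 by 2.84 ± 0.10, and Gucy2e, a guanylate cyclase of photoreceptors, by 0.57 ± 0.08. The gene that did not pass was Gnb1, the transducin beta subunit of rods, at 210 ± 27.1 and 188 ± 54.9 (log2 change -0.20 ± 0.15, adjusted p = 0.289). Its probe sets disagreed: another rose from 54.6 ± 4.65 to 371 ± 78.7, by 2.74 ± 0.12, and the other fell from 112 ± 19.5 to 81.5 ± 25.3.

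Promoter windows of RefSeq (GRCm38.p6, 250 bases before to 50 after a gene's start) were searched on both strands for TAATCC, the core letters bound by the photoreceptor factor Crx, and TGCTGA, part of the Nrl response element. Of 13 rod phototransduction genes 9 had a window, and TAATCC was in 5 of 9 windows (55.6%) and TGCTGA in 3 (33.3%), against 7.06% and 19.5% of 32851 windows of all genes. The 15 genes with the largest rises gave 18 windows for 11 genes, with TAATCC in 6 (33.3%) and TGCTGA in 5 (27.8%). These matches describe letters and show no binding. In 265 of the 32851 windows, matches of different motifs searched here overlapped. The 4 windows below belong to rod phototransduction genes among the 15 largest rises, run 5′ to 3′ on the gene's strand, and show either motif in capitals (GGATTA is TAATCC on the other strand).
Pde6b (chr5:108388123-108388422, plus strand): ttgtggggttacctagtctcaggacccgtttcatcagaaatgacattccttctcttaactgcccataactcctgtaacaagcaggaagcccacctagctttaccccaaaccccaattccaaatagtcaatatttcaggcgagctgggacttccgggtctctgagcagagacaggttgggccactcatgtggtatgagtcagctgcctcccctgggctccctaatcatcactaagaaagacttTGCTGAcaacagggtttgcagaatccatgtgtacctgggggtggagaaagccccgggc
Guca1a (chr17:47400557-47400856, minus strand): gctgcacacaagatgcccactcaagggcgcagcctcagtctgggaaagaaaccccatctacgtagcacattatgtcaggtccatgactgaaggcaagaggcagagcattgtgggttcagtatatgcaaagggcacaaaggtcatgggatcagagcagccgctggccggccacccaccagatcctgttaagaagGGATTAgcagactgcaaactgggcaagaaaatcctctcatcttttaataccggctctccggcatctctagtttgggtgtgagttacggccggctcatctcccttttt
Sag (chr1:87803430-87803729, plus strand): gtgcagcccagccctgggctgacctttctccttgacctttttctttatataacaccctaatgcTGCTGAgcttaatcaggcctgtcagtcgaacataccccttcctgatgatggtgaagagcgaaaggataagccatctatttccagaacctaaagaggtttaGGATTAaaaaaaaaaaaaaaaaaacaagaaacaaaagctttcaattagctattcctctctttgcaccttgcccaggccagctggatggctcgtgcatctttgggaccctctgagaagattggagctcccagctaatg
Cnga1 (chr5:72642703-72643002, minus strand): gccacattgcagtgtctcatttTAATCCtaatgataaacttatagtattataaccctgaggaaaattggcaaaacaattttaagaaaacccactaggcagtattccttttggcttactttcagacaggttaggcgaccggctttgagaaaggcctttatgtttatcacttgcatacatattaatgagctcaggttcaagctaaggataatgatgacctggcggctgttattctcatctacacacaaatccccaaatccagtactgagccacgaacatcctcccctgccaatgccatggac
In the Sag window TGCTGA began 187 bases and TAATCC 87 bases before the start, in the Guca1a window TAATCC began 57 bases before it, in the Cnga1 window 228 bases, and in the Pde6b window TGCTGA began 8 bases before it.

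Outer segment and visual cycle genes rose in full: 10 of 10 measured members, 8 of them at least 2-fold, with a median log2 change of 2.70. Rom1, a protein of the disc rim, went from 71.3 ± 3.44 to 1333 ± 153 (4.22 ± 0.11, adjusted p = 5.48e-22), and its second probe set rose by 4.25 ± 0.12. Its partner in the rim, Prph2, was the least even gene of the list, with 125, 106, 163 and 97.9 at P2 and 831, 282, 443 and 180 at 2 months. The Prph2 groups did not overlap, but the adult arrays differed more among themselves than those of any other member, and the change was 1.62 ± 0.33 (adjusted p = 0.000198). Reep6, a membrane-shaping protein of the endoplasmic reticulum, rose by 5.23 ± 0.09, from 82.7 ± 10.2 to 3083 ± 178.

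Abca4, which clears retinoid from disc membranes, rose by 3.58 ± 0.09, and Prom1, a protein of the membranes from which discs form, by 2.53 ± 0.08. Tulp1 and Unc119, which take part in the transport of proteins to the outer segment, rose by 2.89 ± 0.08 and 2.88 ± 0.07. Genes of the visual cycle that pigment epithelium or Müller glia carry changed less than the genes just named. Rlbp1, the retinaldehyde-binding protein, rose by 1.78 ± 0.08, which was more than Prph2. Rgr, a retinal G protein-coupled receptor, rose by 0.62 ± 0.10 from a dim P2 mean, and Rdh5, a retinol dehydrogenase, by 0.45 ± 0.09.

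Among 10 measured transcription factors of photoreceptors, 7 rose and 2 fell. Crx, the homeobox factor of rods and cones, went from 621 ± 50.3 to 1619 ± 131 (1.38 ± 0.08, adjusted p = 1.19e-14). Nrl itself stood at 61.5, 60.1, 60.1 and 59.9 at P2 and at 134, 129, 129 and 189 at 2 months, an increase of 1.25 ± 0.11 (adjusted p = 1.16e-10). These P2 values lay near the Nrl level in Nrl-/- retina, given below, so the size of this increase is uncertain. Mef2c rose by 2.45 ± 0.14 from a dim level, Rora by 1.51 ± 0.13 and Esrrb, an oestrogen-related receptor of rods, by 1.17 ± 0.12. Prdm1, which in newborn photoreceptors holds back bipolar genes, fell from 202 ± 27.9 to 45.1 ± 5.0 (-2.16 ± 0.11, adjusted p = 9.60e-16), and Rxrg, a retinoid X receptor of cones, fell by 0.47. Neurod1 did not pass, at 143 ± 13.5 and 161 ± 25.1.

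Cone genes split. Of 6 measured, 4 rose, 1 fell and 1 did not pass, with a median of 1.15. Opn1mw, the medium-wavelength opsin, went from 74.3 ± 13.5 to 454 ± 47.4 (2.62 ± 0.17, adjusted p = 1.58e-13), and Opn1sw, the short-wavelength opsin, from 320 ± 87.2 to 762 ± 89.7 (1.28 ± 0.12). Gnat2, cone transducin alpha, rose by 1.95 ± 0.13 and Gnb3, cone transducin beta, by 1.02 ± 0.15. Gngt2, cone transducin gamma, stood at 160, 174, 166 and 189 at P2 and at 104, 106, 98.0 and 115 at 2 months, without overlap, and fell by 0.70 (adjusted p = 3.17e-08). Cnga3, the cone channel subunit, was 58.9 ± 7.74 and 61.6 ± 5.41.

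All 8 measured bipolar cell genes rose, with a median of 1.25. Car8 rose by 2.38 ± 0.18 from a dim level, Kcnma1, a calcium-activated potassium channel, by 2.29 ± 0.09, Rgs11, a regulator of the ON bipolar response, by 1.83, Pcp2 by 1.30 and Prkca, protein kinase C alpha of rod bipolar cells, by 1.18. Trpm1, the channel of ON bipolar cells, rose by only 0.32. In amacrine and horizontal cells 8 of 15 genes rose, 2 fell and 5 did not pass. Calbindin (Calb1) rose by 2.30 ± 0.10, Gad1, which makes GABA, by 1.94, the vesicular transporter Slc32a1 by 1.41 and the glycine transporter Slc6a9 by 1.16, while the transcription factors Tfap2a and Tfap2b fell by 0.70 and 0.67. Beside 26.4% of all genes higher and 24% lower, the ganglion cell list had 5 higher, 3 lower and 4 not called of 12. The list had a median of 0.04. Within it the neurofilament genes Nefh and Nefl rose by 1.64 and 1.42 and the surface protein Thy1 by 1.47, and the RNA-binding protein Rbpms and the transcription factor Eomes fell by 0.87 and 0.76, Eomes to a dim level.

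Müller glia genes were higher in 9 of 12 cases, with a median of 1.32. Aqp4, the water channel of the glial endfeet, went from a dim 17.4 ± 1.32 to 188 ± 33.3 (3.42 ± 0.13, adjusted p = 1.32e-18), and Clu, the secreted chaperone clusterin, from 83.1 ± 7.31 to 884 ± 97.8 (3.41 ± 0.09). Glul, glutamine synthetase, rose by 1.84 ± 0.11, although a second probe set with 171 and 200 did not pass. Carbonic anhydrases Car14 and Car2 rose by 1.96 and 1.21 and apolipoprotein E by 1.42. Dkk3, which progenitors also carry, was the 1 gene that fell. Gfap and 7 more of 13 genes of reactive glia rose, with a median of 0.27, and of these Cebpd alone changed at least 2-fold (1.67 ± 0.16, from a dim level).

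Synaptic genes rose without a fall. Of 16 presynaptic genes 12 rose, with a median of 0.93, and of 18 receptor and channel genes 14, with a median of 0.40. Stx3, the syntaxin of ribbon synapses, went from 73.0 ± 6.39 to 470 ± 79.1 (2.68 ± 0.12), Dnm1, the dynamin of vesicle recovery, rose by 2.36 ± 0.09, the calcium sensor Syt1 by 2.13, and Vamp2 and Snap25 of the fusion complex by 1.72 and 1.69. Stx1a, the syntaxin of conventional synapses, did not pass, at 86.4 and 73.5. Gabrr1 and Gabrr2, GABA receptor subunits known from bipolar cells, rose by 2.14 ± 0.09 and 2.06. The AMPA receptor subunit Gria2 rose by 0.88, and Gria4, Grin2a and Grin2b did not pass.

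Every measured gene of glycolysis was called, 14 higher and 2 lower of 16, with a median of 0.99. Among genes with paralogues the members moved unlike each other. Hk2, hexokinase 2, stood at 106, 122, 104 and 136 at P2 and at 1124, 1490, 1474 and 1598 at 2 months, and rose by 3.60 ± 0.11 (adjusted p = 1.82e-20). Hk1, hexokinase 1, stood at 734, 977, 965 and 1001 and then at 513, 592, 624 and 636, and fell by 0.63 (adjusted p = 6.13e-06). For both hexokinases the groups did not overlap. Aldoc rose by 3.75 ± 0.12 and Aldoa by 2.08, Eno2, the neuronal enolase, by 3.08 ± 0.10, Pfkp, Pfkl and Pfkm of phosphofructokinase by 1.96, 1.42 and 1.00, and Pkm and Ldha by 0.94 and 0.74. Slc2a1, the glucose transporter GLUT1, fell by 0.83 (adjusted p = 1.44e-09). Of 40 mitochondrial respiration genes 14 were higher and 6 lower, with a median of 0.06, beside 50.4% of all genes called. The calls of at least 2-fold were Ckmt1, mitochondrial creatine kinase, which rose by 2.31, and Sdha, of succinate dehydrogenase, by 1.36. A second Ckmt1 probe set did not pass (0.15).

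Genes of cell division fell together. Of 26 measured mitosis genes 25 fell, 24 of them at least 2-fold, none rose, and the median was -2.10. Ube2c did not pass, at 72.1 and 67.3. Mki67, the proliferation antigen, stood at 231, 285, 282 and 307 at P2 and at 11.5, 12.03, 13.1 and 10.9 at 2 months, and fell by 4.53 (adjusted p = 1.34e-21). The adult Mki67 level was dim, so the size is uncertain, and a second, dim probe set had a change of -0.05. Top2a, the topoisomerase that untangles chromosomes, fell from 370 ± 41.7 to a dim 28.4 ± 3.85 (-3.71 ± 0.12), and Cks2, a cofactor of cyclin-dependent kinases, from 635 ± 43.4 to 37.6 ± 2.47 (-4.08 ± 0.10). Cdk1, the mitotic kinase, fell by 3.16, Cdc20, an activator of the anaphase-promoting complex, by 3.15, and the condensin subunit Smc2 by 3.28, to a dim level.

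Ccnd1, cyclin D1, the main D-type cyclin of retinal progenitors, stood at 1904, 2162, 2142 and 2391 at P2 and at 68.4, 77.5, 70.6 and 84.8 at 2 months. The groups lay far apart and the fall of 4.84 (adjusted p = 2.87e-24) held on a second probe set (-2.19 ± 0.18). Its kinase Cdk4 fell by 2.53. Of 15 cyclins and inhibitors 9 fell, 1 rose and 5 did not pass, and Ccnd3 was the 1 that rose, by 0.38. The inhibitors Cdkn1c and Cdkn2d fell by 1.41 and 0.66, and Cdkn1a and Cdkn1b did not pass (0.02 and -0.08), although a second Cdkn1a probe set fell by 0.37.

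DNA replication genes fell in 22 of 26 cases, with a median of -1.42. Mcm5, of the replicative helicase, went from 731 ± 41.5 to 78.7 ± 8.73 (-3.22 ± 0.09), but its second probe set rose by 0.29. Rrm2, of ribonucleotide reductase, fell by 3.18, and Mcm3, Cdc6 and Mcm7 by 2.56, 2.45 and 2.24, Cdc6 to a dim level. Rpa1, of the single-strand binding protein, was the 1 gene of the list that rose, by 0.48, while Rpa2 and Rpa3 fell by 0.30 and 0.93. Pola2 did not pass on its brightest probe set (0.11) but fell by 0.99 on another.

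The windows of the division genes were searched for other letters as well. TTTGAA, found in the cell cycle homology region of genes active in mitosis, was in 15 of 20 windows of mitosis genes (75%) and CCAAT in 17 (85%), against 17.9% and 37.4% of all 32851 windows. In 28 windows of DNA replication genes the shares were 10.7% and 64.3%, while the E2F sequences TTTGGCGC and TTTCCCGC were in 14.3% and 17.9% of them, against 0.514% and 1.07% of all windows and 0 of the 20 mitosis windows. CCAAT was also in 5 of 9 rod phototransduction windows (55.6%) and in 6 of 18 of the largest rises (33.3%). TGCTGA was in 4 of 20 mitosis windows (20%), and TAATCC in 0 of the 13 windows of the 15 largest falls. The 3 windows below, of mitosis genes among the 15 largest falls, show TTTGAA and CCAAT in capitals on either strand (TTCAAA and ATTGG on the other strand).
Mki67 (chr7:135716330-135716629, minus strand): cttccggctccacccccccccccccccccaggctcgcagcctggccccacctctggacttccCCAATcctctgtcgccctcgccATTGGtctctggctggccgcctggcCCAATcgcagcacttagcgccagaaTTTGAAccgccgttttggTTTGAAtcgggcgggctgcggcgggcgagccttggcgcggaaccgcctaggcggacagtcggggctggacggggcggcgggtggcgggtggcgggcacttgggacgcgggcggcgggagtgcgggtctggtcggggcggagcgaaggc
Top2a (chr11:99024140-99024439, minus strand): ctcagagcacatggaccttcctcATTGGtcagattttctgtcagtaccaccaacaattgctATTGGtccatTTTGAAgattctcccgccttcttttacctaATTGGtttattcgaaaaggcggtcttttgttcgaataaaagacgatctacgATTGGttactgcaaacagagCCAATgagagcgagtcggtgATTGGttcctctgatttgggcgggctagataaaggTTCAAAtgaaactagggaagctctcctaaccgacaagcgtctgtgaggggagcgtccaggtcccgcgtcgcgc
Cks2 (chr13:51644982-51645281, plus strand): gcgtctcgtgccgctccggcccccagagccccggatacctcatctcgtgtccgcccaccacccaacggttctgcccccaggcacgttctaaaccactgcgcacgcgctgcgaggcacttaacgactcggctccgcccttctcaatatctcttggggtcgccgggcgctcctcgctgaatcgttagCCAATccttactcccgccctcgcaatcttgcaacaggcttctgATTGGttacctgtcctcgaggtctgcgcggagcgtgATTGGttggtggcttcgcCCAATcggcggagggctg
The Mki67 window held TTTGAA at 2 places and CCAAT at 3, the Top2a window TTTGAA at 2 and CCAAT at 6, and the Cks2 window CCAAT at 4 and no TTTGAA.

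Progenitor and neurogenesis genes were lower in 23 of 25 cases, with a median of -1.52, and none was called higher. Sox11 stood at 492, 532, 739 and 608 at P2 and at 40.0, 30.0, 35.0 and 33.4 at 2 months (-4.09 ± 0.14, adjusted p = 8.40e-20). Hes6, a helix-loop-helix factor of early neurons, fell by 3.87, and Sox4 by 3.42, each without overlap of the groups. Among genes of Notch signalling, which holds progenitors undifferentiated, the ligand Dll1 fell by 2.22, the receptor Notch1 by 2.62 and the targets Hes5 and Hes1 by 2.85 and 1.52. Notch2, outside the list, rose by 0.31 on 1 probe set and fell by 0.31 on a dim one, and was named after its values were seen. A second, dim probe set of Dll1 rose by 0.36, and a second probe set of Hes5 did not pass (0.14). Neurog2, which promotes neuronal fate, fell by 2.18, Sox2 by 1.76 and Pax6 by 0.84. Nfia and Nfix, of the nuclear factor I family, did not pass (0.01 and -0.23). Nfib of the same family was among the genes called lower, and another Nfib probe set fell by 1.41.

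Axon growth genes were lower in 18 of 25 cases and higher in none, with a median of -0.73. Marcksl1 fell by 3.42 and Marcks, both substrates of protein kinase C at the membrane, by 2.88. Stmn1, the microtubule regulator stathmin, went from 2704 ± 299 to 587 ± 32.5 (-2.20 ± 0.11), with a second probe set that did not pass (0.07), and doublecortin (Dcx), growth-associated Gap43 and the neuronal tubulin Tubb3 fell by 2.16, 1.70 and 1.37. The chemokine receptor Cxcr4 fell by 2.81, to a dim level. Receptors and cues such as Dcc, Epha4 and Sema3a did not pass.

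Chromatin genes were lower in 16 of 20 cases (median -1.24). Hmgb3, a high-mobility group protein, stood at 2048, 2224, 2197 and 2210 at P2 and at 274, 301, 311 and 321 at 2 months (-2.85 ± 0.09, adjusted p = 7.41e-21). Ezh2, the methyltransferase of Polycomb complex 2, fell by 2.76, whereas its partners Suz12 and Eed did not pass (-0.01 and -0.25). Uhrf1 and Dnmt1, which copy DNA methylation, fell by 2.22 and 1.23, with a second Dnmt1 probe set that did not pass (-0.06), and Hmgn1 was the 1 that rose, by 0.73. Splicing factors fell in 15 of 19 cases (median -0.67), with Snrpe at -1.84 ± 0.10 and Sfpq at -1.30 ± 0.11, while a dim Sfpq probe set rose by 0.56. Ribosomal protein genes fell in 11 of 15 cases, most for Rplp0 (-1.53 ± 0.09), with a median of -0.52. That median was -0.17 when all probe sets of a gene counted, and the 1 higher call, Rps29 (0.24), was lost after median centring or quantile normalisation and without any of 4 single arrays (P2 replicates 2 and 3, 2 month replicates 3 and 4). Of 19 imprinted genes 10 fell and 3 rose. Nnat, neuronatin, had the largest change, from 1616 ± 149 to 92.6 ± 14.4 (-4.14 ± 0.11), and Plagl1 and Cdkn1c fell by 2.28 and 1.41.

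**Figure D2:**
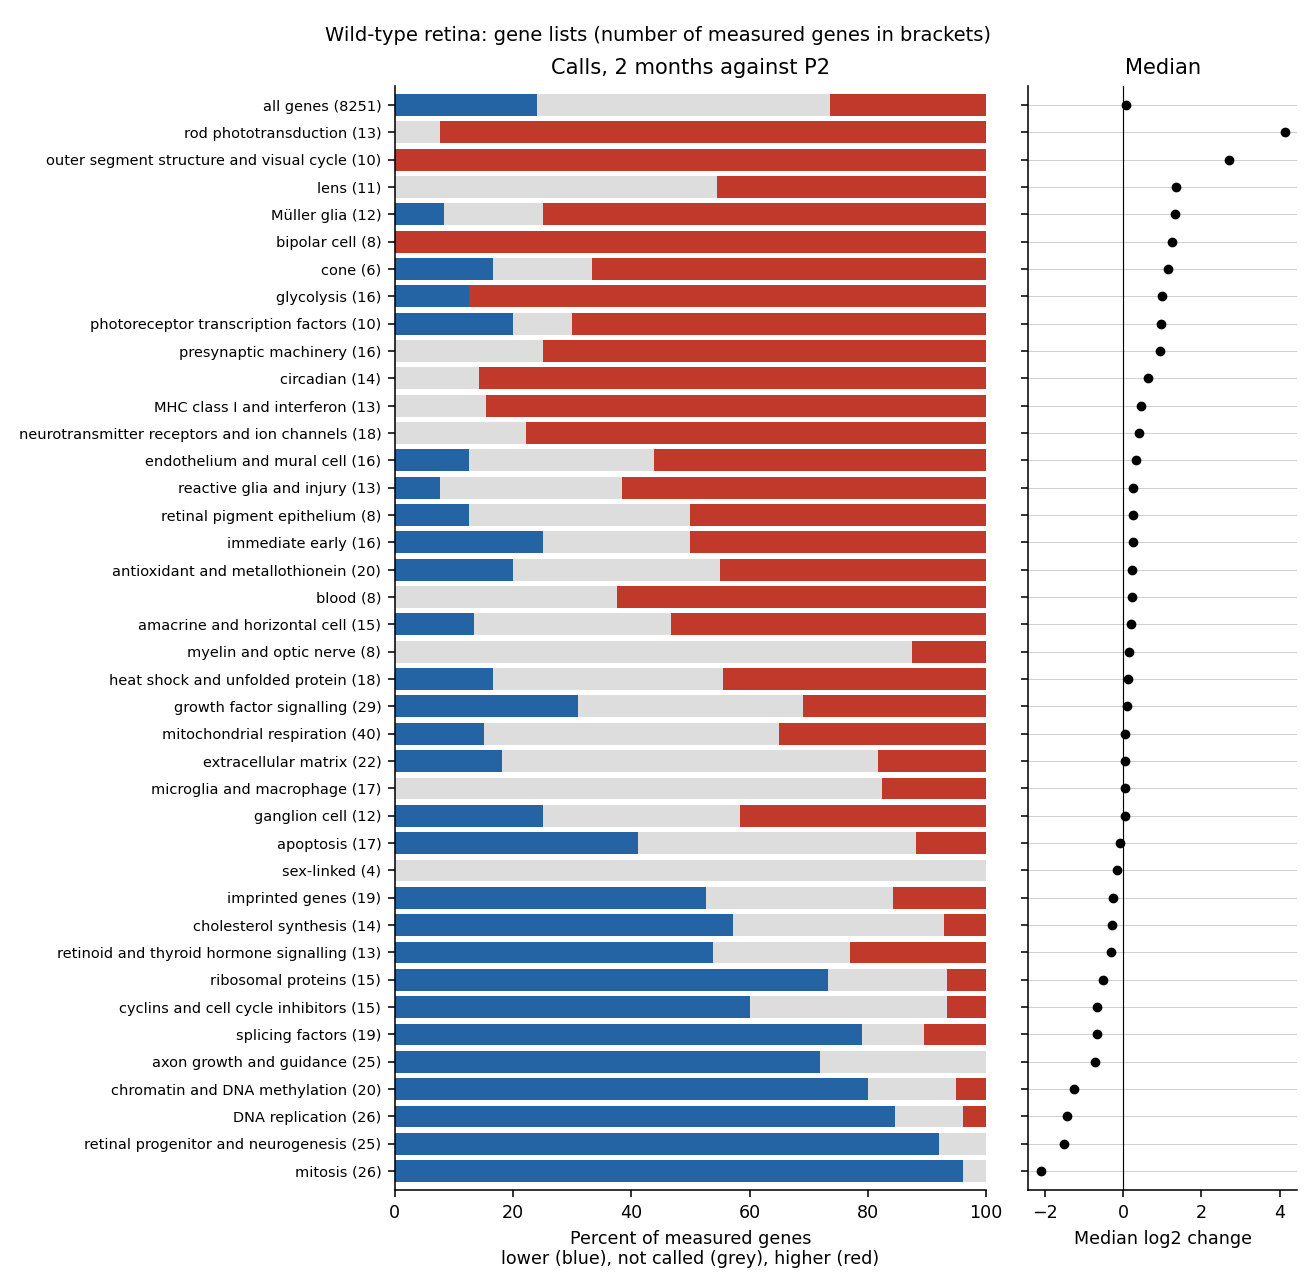
Left, the percent of measured genes in each list called lower (blue), not called (grey) and called higher (red) at 2 months against P2 in wild-type retina; right, the median log2 change of each list, with all 8251 genes on top. The rod phototransduction list has the highest median (4.13) and the mitosis list the lowest (-2.10).

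Several of the 15 largest rises lay outside the photoreceptor lists. Vtn, vitronectin, an extracellular glycoprotein, stood at 45.7, 53.4, 52.3 and 61.3 at P2 and at 1567, 1772, 1805 and 1917 at 2 months, and rose by 5.06 ± 0.09 (adjusted p = 3.77e-25). Sgk1, a kinase induced by glucocorticoids, rose by 4.83 ± 0.11 from a dim 16.6 ± 1.80 to 474 ± 52.1. Drd4, the dopamine receptor of photoreceptors, rose by 3.61 ± 0.19, from 92.9 ± 7.45 to 1134 ± 71.7. Fos, an immediate early gene, rose by 4.50 ± 0.19 and Tnfaip3, an inhibitor of NF-kappa-B signalling, by 3.63 ± 0.15, both from dim means of 7.38 and 26.7. A second, dim Fos probe set did not pass (0.07).

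Among the 15 largest falls, Myb, a transcription factor of dividing cells, stood at 951, 1120, 1048 and 1113 at P2 and at 21.7, 25.9, 27.7 and 31.7 at 2 months, and fell by 5.32 (adjusted p = 1.25e-19). Its adult mean was dim. Fabp7, a fatty acid-binding protein of progenitors and glia, fell from 1019 ± 67.0 to 47.3 ± 8.31 (-4.44 ± 0.14), and H1f10, a linker histone, by 3.59. Cd24a, a surface glycoprotein of young neurons, was the most even of the falls at P2, at 1092, 1124, 1115 and 1110, and fell by 3.57 to 95.3, 84.5, 93.4 and 102. Trim59 and the LIM protein Csrp2 fell by 3.49 and 3.30, Trim59 to a dim level.

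**Figure D3:**
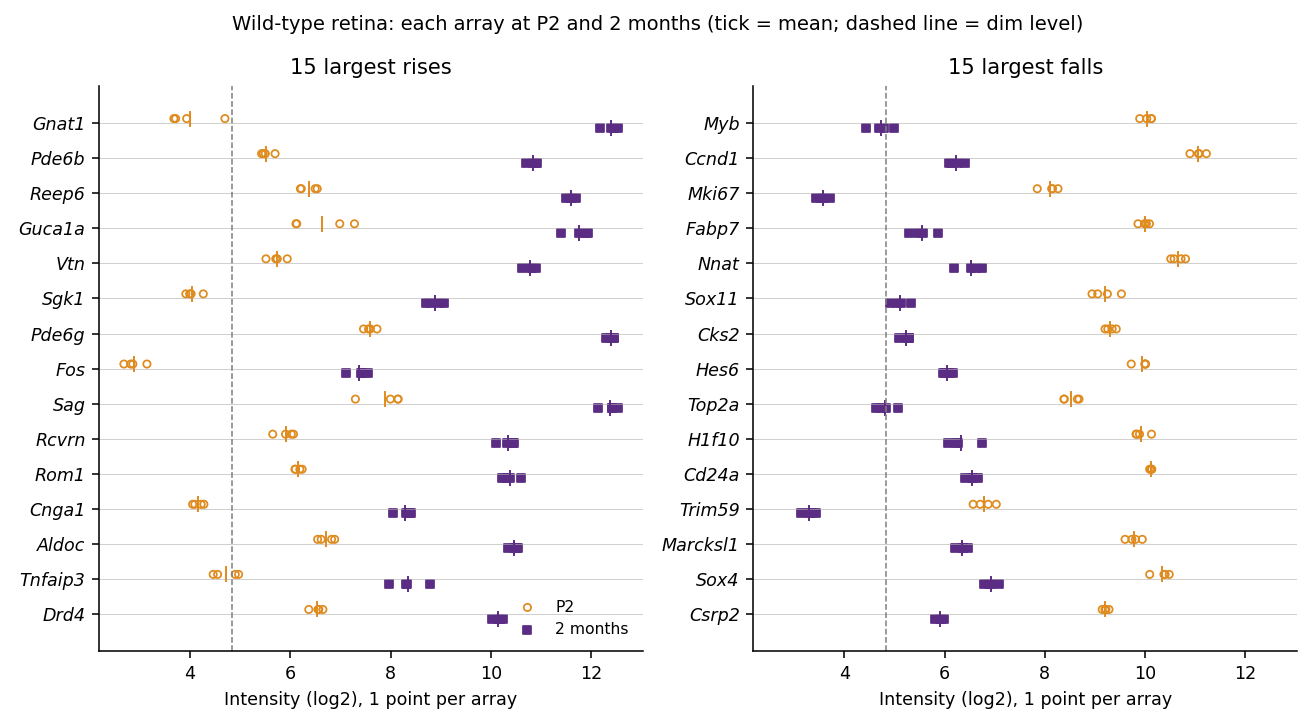
Log2 intensity on each wild-type array at P2 (open circles) and 2 months (filled squares) for the 15 largest rises (left) and falls (right); short ticks mark group means and the dashed line the dim level of 28.5. The genes were chosen among those without overlap of the groups, and the P2 means of Gnat1, Sgk1, Fos, Cnga1 and Tnfaip3 lie below the dashed line.

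Lens genes rose on 5 of 11 measured genes, and their summed intensity showed that the P2 arrays were unlike each other. The sum was 2648 on P2 replicate 1 and 801 to 868 on the other P2 arrays, 829 to 1337 at P10 and 2143 to 3351 at 2 months. Crygs, a crystallin, went from 53.2 ± 10.9 to 347 ± 101 (2.67 ± 0.31, adjusted p = 2.35e-08), and Cryba1 and Cryaa rose by 2.19 and 1.80. Crygd, at 550, 74.9, 93.1 and 80.2 at P2 and 271, 219, 467 and 480 at 2 months, did not pass (1.36 ± 0.68). The Crygd net log2 change was 2.04 without P2 replicate 1 (adjusted p = 0.01379), which passed, and 8 of 11 lens genes were then called higher. In a fit to the 8 compared arrays alone 10 were. The part of lens tissue in any other gene's change was not tested.

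Genes of other cells that a dissected retina can carry were counted as well, beside 26.4% of all genes higher and 24% lower. Of 16 genes of endothelium and mural cells 9 rose and 2 fell, all less than 2-fold, with Flt1 at 0.63, and Kdr, the main receptor for vascular endothelial growth factor, fell by 0.82. Of 17 microglia and macrophage genes 3 rose and 14 did not pass, and C1qa, C1qb, C1qc and Csf1r all lay between -0.07 and 0.05. The microglia list's summed intensity was 1410 to 1450 at P2 and 1708 to 1793 at 2 months, without overlap, and that of blood 461 to 490 and 747 to 794. Of 8 blood genes 5 rose, led by the haemoglobin gene Hba-a1 (1.27), but only 2 after median centring or quantile normalisation, 2 without P2 replicate 2 or 2 month replicate 3, and 3 without P2 replicate 3 or 2 month replicate 1. In the pigment epithelium list 4 of 8 genes rose, with Ttr at 0.52, and the pigment gene Pmel fell by 0.43. Of 8 myelin genes only Mal was called, at 0.41. Of 13 genes of MHC class I and interferon response 11 rose, none by 2-fold or more, with H2-K1 at 1.00 ± 0.07 and H2-D1 at 0.70.

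At P10 most genes lay between their newborn and adult levels, but some left that range. Of the 2178 genes called higher the P10 mean lay within it for 1741 (79.9%), and of the 1980 called lower for 1458 (73.6%), against 4918 of all 8251 (59.6%). A peak was called where P10 was above both P2 and 2 months, each at an adjusted p under 0.05, and a dip where it was below both. The first step alone was called for 38.7% of genes and the second for 17.5%, and both share the P10 arrays. There were 247 peaks among the probe sets (1.99%) and 108 dips (0.869%), or 203 and 82 genes. Of the 203 peaking genes 114 had no net call, 73 were higher at 2 months and 16 lower, beside 4093 of all 8251 genes with no net call. Of the 82 dips 36 were lower, 34 had no net call and 12 were higher.

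Among peaks, Vcam1, an adhesion molecule, stood at 29.8 to 38.6 at P2, 137 to 149 at P10 and 53.0 to 67.6 at 2 months. Its groups did not overlap, and it rose by 2.02 ± 0.12 to P10 and fell by 1.22 thereafter. One more Vcam1 probe set peaked, and a dim one did not. Isl1, a homeobox factor of bipolar, ganglion and amacrine cells, ran from 55.0 to 57.0 at P2, from 155 to 187 at P10 and from 72.8 to 88.4 at 2 months. Pias3, a regulator of photoreceptor transcription factors, averaged 144, 353 and 167, and both of its other probe sets peaked too. Npy, neuropeptide Y, averaged 234, 531 and 211, and its P10 values of 492, 439, 437 and 756 were uneven. Ndrg1, a stress-responsive gene, averaged 903, 1767 and 682, and Tmem229b 113, 483 and 233. None of these P10 groups overlapped the group at either other age, which the choice of the named peaks required.

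The matrix genes Sparc and Col4a1 also peaked, at 187 against 63.4 and 97.2, and at 247 against 128 and 132. They belong to lists in which several members peaked: 5 of 22 extracellular matrix genes (Col4a1, Col4a2, Sparc, Tnc and Bgn), 5 of 16 of endothelium and mural cells (Cdh5, Tie1, Cldn5, Eng and Rgs5) and 6 of 17 of microglia (C1qa, C1qb, C1qc, Ctss, Tyrobp and Cd53), against 203 of all 8251 genes (2.46%). Summed intensities of these lists, which include the peaking genes, were also highest at P10. Endothelium and mural cells ran from 1015 to 1065 at P2, 1361 to 1382 at P10 and 1085 to 1124 at 2 months. Microglia ran from 1410 to 1450, 1849 to 2082 and 1708 to 1793, and extracellular matrix from 2393 to 2445, 2647 to 2758 and 2103 to 2242. Blood, with 1 of 8 genes peaking, ran from 461 to 490, 958 to 1157 and 747 to 794. The part of these lists in other peaks was not tested.

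Dips were led by Dusp1, a phosphatase of the immediate early class, which averaged 128 at P2, 65.4 at P10 and 164 at 2 months. Cdkn2c, the cyclin-dependent kinase inhibitor p18, stood at 170 to 194, 74.96 to 86.1 and 128 to 144, with no overlap of the 3 groups. The choice of the named dips required this of the P10 group. Sap30, of a histone deacetylase complex, averaged 50.9, 16.8 and 28.3, dim at the later ages, Dkk3 1468, 623 and 1019, and the transmembrane protein Emb 85.4, 50.5 and 80.8. Genes of cholesterol synthesis dipped in 4 of 14 cases (Fdps, Fdft1, Idi1 and Srebf1), against 82 of all 8251 genes (0.994%), and Msmo1, a sterol oxidase outside that list, averaged 145, 77.8 and 119. Over the whole interval 8 of the 14 fell, Idi1 by 1.23, and Sc5d alone rose, by 0.28, dim at both ages, and not after median centring or quantile normalisation, nor in the fit to the compared arrays alone, nor without P2 replicates 1 or 4 or 2 month replicates 2 or 3. Zfp36l2, which destabilises mRNA, averaged 470, 323 and 601, but neither of its other probe sets was called a dip. Hnrnph3, a splicing regulator, averaged 359, 239 and 438.

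**Figure D4:**
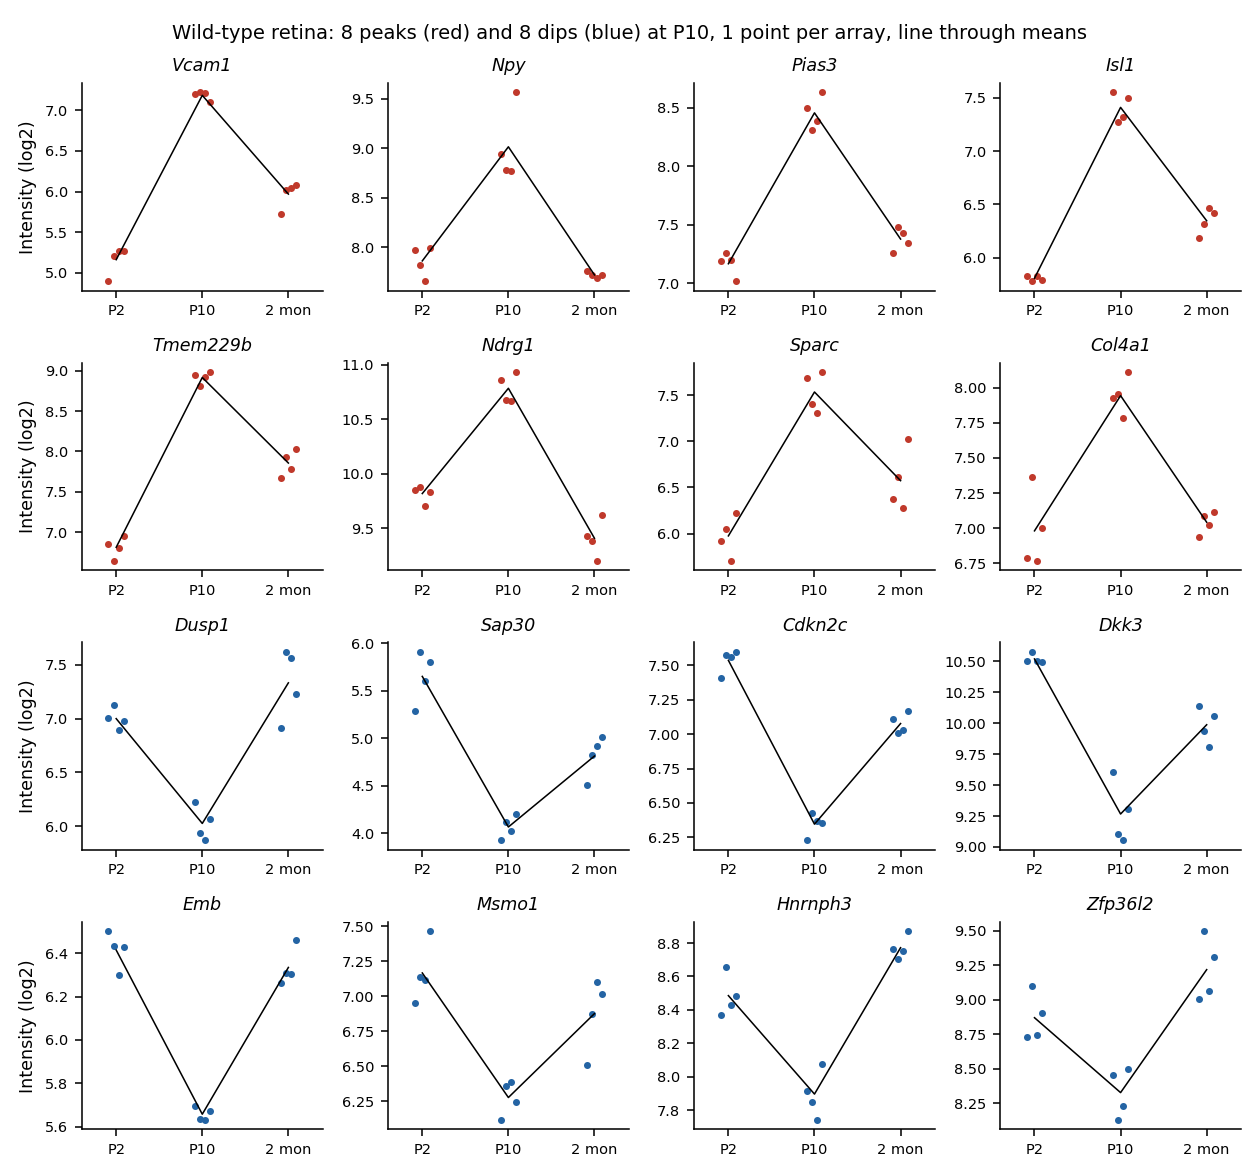
Log2 intensity on each wild-type array at P2, P10 and 2 months (2 mon) for the 8 largest peaks (red) and the 8 largest dips (blue), with a line through the group means; each panel has its own y axis. In each panel the 4 P10 points lie apart from the points of both other ages, as the choice of these genes required.

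The same interval was measured in Nrl-/- retina, and the difference between the genotypes' net changes was tested gene by gene. Replicate 1 of Nrl-/- P2 stood apart, with a median intensity of 61.72 against 68.97 to 70.25 in its group. Its correlations with that group were 0.9833 to 0.9869. Without it 607 probe sets differed, against 584 with all arrays. Nrl stood at 51.3 ± 5.13 at P2 and 54.5 ± 6.01 at 2 months in Nrl-/- retina, which did not pass (adjusted p = 0.517), against its rise in wild type. The net change differed for 450 of 8251 genes (5.45%), and for 584 probe sets (4.70%), 288 with a higher (2.32%) and 296 with a lower change (2.38%) in Nrl-/- retina. It differed for 9 of 13 rod phototransduction genes, 5 of 6 cone genes and 3 of 10 outer segment genes. Of the 100 largest wild-type falls 15 differed, and all 100 were also called lower in Nrl-/- retina, as were 23.8% of all genes. Of the 100 largest rises 48 differed, and 94 were also called higher there, as were 28.3% of all genes. Both sets of 100 were ranked on the wild-type change, which the difference subtracts. That choice favours a smaller change in Nrl-/- retina, so the counts of 48 and 15 are no independent result.

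Gnat1 averaged 12.9 at P2 and 27.3 at 2 months in Nrl-/- retina, both dim, and the difference in log2 change was -7.71 ± 0.50 (adjusted p = 4.67e-12). Cnga1 was 17.5 and 17.4 there, for a difference of -4.14 ± 0.14, and the rises of Reep6 and Pde6b were smaller by 3.74 and 3.34 on the log2 scale. Aqp1, a water channel, rose from 45.1 ± 3.77 to 397 ± 49.6 in wild type but was 41.9 and 48.9 in Nrl-/- retina (-2.90 ± 0.16), although a second Aqp1 probe set had a wild-type change of 0.12. Cdr2 rose by 3.06 in wild type and by 0.56 in Nrl-/- retina. Not all rod genes followed: Sag and Pdc rose more in Nrl-/- retina, by 2.18 and 1.28, from 45.5 ± 12.7 and 83.8 ± 16.1 at P2. For Sag this start lay below every wild-type P2 value, so its larger rise does not by itself mean a higher adult level. Guca1a, Rom1, Tulp1 and Unc119 did not pass the test of the difference.

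The opposite difference was largest for Clca1, a chloride channel regulator, which was 22.0 and 27.8 in wild type, dim at both ages, and 18.5 and 447 in Nrl-/- retina (4.22 ± 0.22, adjusted p = 8.96e-14). A second Clca1 probe set had a wild-type change of 0.11. Opn1sw went from 403 ± 26.3 to 7122 ± 157 in Nrl-/- retina, a rise larger than in wild type by 2.86 ± 0.17, and Gngt2, which fell in wild type, rose from 200 ± 17.9 to 889 ± 38.3. Pygm, muscle glycogen phosphorylase, rose in both genotypes, by 2.06 in wild type and 4.62 in Nrl-/- retina. Fabp7 fell in both, to 47.3 ± 8.31 in wild type and to 368 ± 58.7 in Nrl-/- retina, and Fkbp9, a prolyl isomerase, fell by 0.50 in wild type and rose by 2.11 in Nrl-/- retina.

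**Figure D5:**
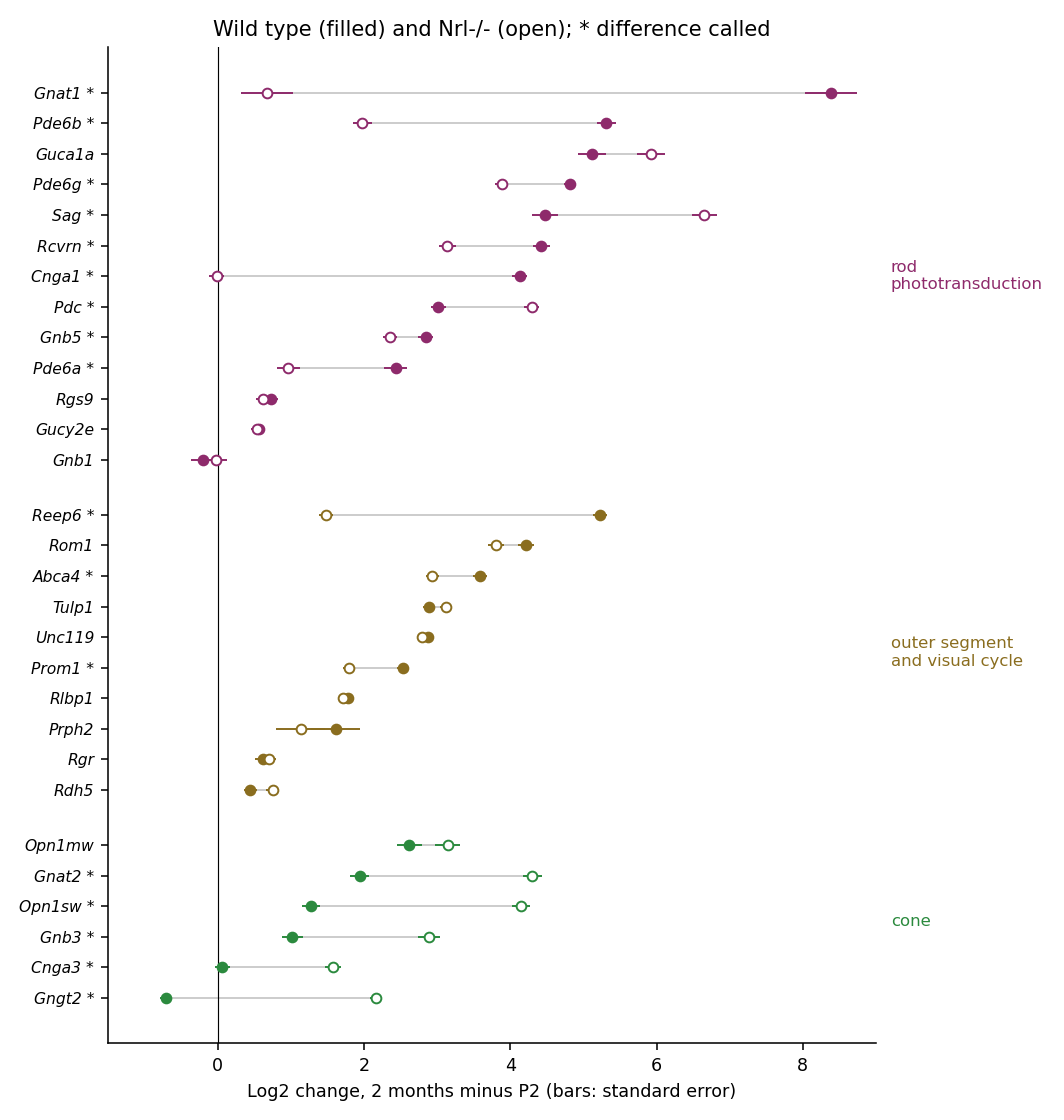
Log2 change from P2 to 2 months in wild-type (filled) and Nrl-/- retina (open) with standard errors, for all measured genes of the rod phototransduction, outer segment and cone lists; an asterisk marks a called difference. The open symbols of Gnat1, Cnga1, Reep6 and Pde6b lie far to the left of the filled ones, those of Sag, Pdc, Opn1sw, Gnat2, Gnb3, Cnga3 and Gngt2 to the right.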

How the data were processed

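Values are intensities, 1 per probe set and array, which the authors deposited on a linear scale. The submitters' processing notes name RMA, a method of background correction, quantile normalisation and probe summary, and its version is not given in the sources used here. RMA forces similar distributions on arrays normalised together, so a change shared by most genes may not show. Which arrays were normalised together is not given. The deposited wild-type arrays still differed, with median intensities of 65.94 to 69.62 at P2 and 70.19 to 71.28 at 2 months. Wild-type and Nrl-/- retina at P2, P10 and 2 months gave 24 arrays. The number of arrays limits the precision.

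From the deposited intensity, log2 was taken with no offset, and 1 limma model (3.58.1, R 4.3.3) with 6 group means was fitted to all 24 arrays with eBayes, so that P10 and Nrl-/- arrays helped set the variance (6077 probe sets were called from the 8 compared arrays alone), leaving 18 residual degrees of freedom. Contrasts were 2 months minus P2, both steps through P10, and the difference of the net change from that of Nrl-/- retina. Of 12422 probe sets 10833 had 1 symbol, 396 several and 1193 none, from the platform annotation, with symbols matched to RefSeq. Promoter windows were RefSeq's.

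Named were the 15 largest rises and falls among called genes without overlap, the 8 largest peaks and dips, 6 differences from Nrl-/- retina each way, up to 6 members of each list with the largest changes, and the rod, outer segment and cone genes. The named peaks and dips were also chosen among genes whose P10 values overlapped neither other age. A few more list members were named after their values were seen. The members and the 39 lists, with 622 of 797 listed genes measured, were chosen with earlier results of these data known. Lists are described by counts and medians, with no test. The fit was checked on artificial data with known answers. Alternatives were quantile normalisation, median centring, a filter on dim probe sets, an offset of 16, trended and robust moderation, array weights, fewer arrays in the fit, an adjusted p under 0.01, a replicate block and leaving out each array. Figures used Python 3.11.15 and matplotlib 3.10.9.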

Additional observations from a re-analysis of the deposited data

Results flagged for a closer look

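The genes named as largest rises, falls, peaks, dips and differences from Nrl-/- retina (53 genes) were screened in the 3 wild-type groups, 159 pairs of gene and group. In 10 pairs 1 array stood apart from the other 3 by Dixon's criterion, which chance meets in about 1 of 20 groups. In P10 replicate 1 Pde6g read 3979 against 3479 to 3517 on the others, Tnfaip3 101 against 63.6 to 68.1, Opn1sw 529 against 438 to 445 and Fkbp9 36.1 against 40.7 to 41.6. In P10 replicate 4 Hes6 read 168 against 102 to 113, Cd24a 378 against 256 to 264 and Vcam1 137 against 147 to 149. In P2 replicate 1 Hes6 read 846 against 1020 to 1030, in P2 replicate 2 Dkk3 read 1528 against 1446 to 1450, and in 2 month replicate 4 Cks2 read 33.9 against 38.4 to 39.1. Of the 10, 7 lay on P10 arrays.

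For 25 of these genes the net change differed between Nrl-/- and wild-type retina by the test of the difference itself (limma, adjusted over 12422 probe sets). Among the largest wild-type rises the difference in log2 change was -7.71 for Gnat1, -3.34 for Pde6b, -3.74 for Reep6, -1.30 for Sgk1, -0.93 for Pde6g, -1.10 for Fos, -1.29 for Rcvrn, -4.14 for Cnga1, -2.20 for Tnfaip3 and -1.06 for Drd4, and 2.18 for Sag. Among the largest falls it was 2.79 for Fabp7 alone. Of the peaks and dips, Ndrg1 differed by -1.33, Col4a1 by -1.0, Dusp1 by -1.04, Sap30 by -1.18, Cdkn2c by -0.57 and Zfp36l2 by -2.36. The others were Clca1 (4.22), Gngt2 (2.86), Opn1sw (2.86), Fkbp9 (2.60), Pygm (2.55), Aqp1 (-2.90) and Cdr2 (-2.50). These 7 and Gnat1, Cnga1, Reep6, Pde6b and Fabp7, 12 in all, were chosen for the size of this difference. The largest rises and falls were ranked on the wild-type change that the difference subtracts, which favours a smaller change in Nrl-/- retina.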

How the results depend on the processing

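For the genes named as largest rises, falls, peaks, dips and differences from Nrl-/- retina, and the lens genes, values were recomputed under the alternatives other than the adjusted p under 0.01. Of these values 1638 kept their side of the threshold, none reversed or lost its call, and 11 gained one, all of lens genes. Apart from the lens genes, the set was chosen for large called changes in these same data. Its kept calls therefore say little about other genes. The number of probe sets higher at 2 months was 1897 when only the brighter 6211 were tested, where fewer could be called. Dips numbered 184 with array weights and 59 at an adjusted p under 0.01, and the cause was not tested for the weights. Leaving out 1 array gave 4988 to 5616 called probe sets, 2526 to 3061 higher and 2392 to 2589 lower, 897 to 944 at least 2-fold, 186 to 248 peaks, 79 to 122 dips and 507 to 697 differences from Nrl-/- retina. Of the list counts 1251 stayed within 1.5 times and 75 did not. The labels do not say what the replicate numbers mark, so they were not used to pair arrays. Deviations of same-numbered P2 and 2 month arrays correlated at 0.307, 0.195, 0.092 and 0.352, each array best with its own number. Differently numbered arrays gave -0.286 to 0.065, so the main fit may leave out a grouping that the numbers share. What they share was not tested. With the number as a replicate block 6165 probe sets were called, 5627 of them among the 5631. Peaks, dips and differences from Nrl-/- retina then numbered 315, 158 and 834, against 247, 108 and 584 in the main fit. Depth has no meaning for arrays, and dim levels limit the size of folds: 61 of the 416 rises of at least 2-fold had a dim P2 mean and 79 of the 498 falls a dim 2 month mean.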

Other observations

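Clock genes were higher in the adult retina in 12 of 14 cases, with a median log2 change of 0.63. Dbp, a transcription factor of the clock's output, went from 46.5 ± 5.08 to 144 ± 8.41 (1.63 ± 0.10), Nr1d2 and Nr1d1, the repressors of the clock's second loop, rose by 1.36 and 0.92, and Per1 by 0.91. Bhlhe40 rose by 1.98 from a dim level. Arntl, the partner of Clock, did not pass between P2 and 2 months (-0.10) and peaked at P10. The labels give no hour of collection. Immediate early genes split: 8 of 16 rose and 4 fell, beside 26.4% and 24% of all genes. Egr1 rose by 2.26 ± 0.19 and Nr4a1 by 1.39, while Jund and Btg2 fell by 0.81 and 0.75. Of 18 chaperone genes 8 rose and 3 fell, and the inducible Hspa1a and Hspa1b went from 60.8 ± 5.13 to 503 ± 26.3 and from 29.9 ± 1.28 to 265 ± 13.3, without overlap of the groups.

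Metallothioneins Mt1, Mt2 and Mt3 rose by 1.94, 1.28 and 0.92, and glutathione transferase Gstp1 by 1.10, while Gstm5, peroxiredoxin Prdx2 and thioredoxin Txn1 fell by 1.34, 1.07 and 1.27. A second Gstm5 probe set fell by 0.93 and 2 more did not pass (0.20 and -0.09). Of 13 retinoid and thyroid hormone genes 7 fell, 3 rose and 3 did not pass. Crabp1, a retinoic acid carrier, fell from 350 ± 27.4 to 92.9 ± 4.61 (-1.91 ± 0.11), its relative Crabp2 by 1.82, Cyp26a1 by 1.94 and Aldh1a3 by 1.09, the last 3 to dim levels and Aldh1a3 from one, while the receptor gene Rarg rose by 0.35. Of 17 apoptosis genes 7 fell and 2 rose, beside 24% and 26.4% of all genes. Casp2 was at -1.26, Apaf1 at -0.93 and the inhibitor Xiap at 0.99. Of 29 growth factor genes 9 were higher and 9 lower, beside 26.4% and 24% of all genes, with the receptor Kit at -1.86, to a dim level, and Fzd4, a receptor of the Norrin pathway, at 0.66. None of 4 sex-linked genes passed.

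Probe sets of 1 gene did not always tell the same story. Of 2073 genes with more than 1 probe set, 405 had all of them called the same way, 868 had some called and none opposite, 747 had none called and 53 had probe sets called in both directions. Klc1, a kinesin light chain, rose by 0.69 on 1 probe set and fell by 1.75 and 0.97 on the others, and Hspa4 rose by 0.88 on its brightest and fell by 0.61 and 1.02 on 2 others. Both genes were chosen after their values were seen.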
